A study of Mus musculus with 21 samples.

Results

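The 10 genes examined here encode enzymes that carry long-chain fatty acids through beta-oxidation inside the mitochondria: Cpt2, Acadvl, Acadl, Hadha, Hadhb, Hadh, Acaa2, Etfa, Etfb and Etfdh. They were taken by symbol as enzymes of this pathway, with no threshold on a measured value, and all 10 were present among the 53738 gene symbols of the expression table. Their levels come from RNA-seq of whole quadriceps of adult male wild-type mice (C57/Bl6), in 7 groups with 3 libraries each. Sedentary mice neither trained nor ran to exhaustion. The paper describes treadmill acclimatization over 3 days before the maximal tests. Untrained mice ran a treadmill bout to exhaustion, and trained mice had voluntary access to running wheels for 12 weeks before the same bout. Both were killed 0 h, 6 h or 72 h after the bout. There was no trained group without a bout, so training and the bout cannot be told apart in a comparison of trained with sedentary mice. Likewise, whether a difference between trained and untrained mice after the bout was already there before it cannot be told. Trained and untrained mice at the same time had both run to exhaustion, which does not make the work done in the bout equal.

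Long-chain fatty acids enter the mitochondrial matrix bound to carnitine. CPT2, on the inner membrane, re-forms the acyl-CoA that the matrix enzymes use. ACADVL and ACADL remove the first pair of hydrogens, the trifunctional protein made of HADHA and HADHB carries out the following steps for long chains, and HADH and ACAA2 take over the dehydrogenase and thiolase steps as the chain shortens. The electrons taken up by the acyl-CoA dehydrogenases pass through the flavoprotein of ETFA and ETFB to ETFDH, which hands them to ubiquinone in the respiratory chain. In skeletal muscle the pathway is a main source of energy at rest and in endurance exercise, and its genes are known targets of the PPAR and ERR nuclear receptors and their coactivator PGC-1alpha.

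The unit is TPM, a measure of transcript abundance that corrects for transcript length and scales each library to the same total. Since TPM hold no read counts, sequencing depth is unknown here, and precision rests on the spread between libraries. The labels do not say whether the 3 libraries of a group came from separate mice, and p-values measure the spread between them. The first library of untrained 0 h and the first of trained 0 h held identical values for all genes, which leaves 20 distinct libraries. Values of the 0 h groups are therefore given with that library named as the shared library. Genes of the mitochondrial genome, which are not among the 10 and whose transcripts fill part of the TPM total, took 37.7 to 40.6% of it at 0 h and 40.6 to 48.0% in the other groups. The 8 skeletal muscle markers, such as Ckm and Acta1, summed to between 57613 and 79406 TPM in each library.

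The genes lie on 8 autosomes, and several overlap a neighbour, which matters because the library kit does not mark strand. On GRCm39 (GENCODE annotation), Cpt2 spans chr4:107751473-107780812, Hadh chr3:131027068-131065750, Etfdh chr3:79511086-79536807, Acadvl chr11:69900853-69906270, Acadl chr1:66868267-66902633, Etfa chr9:55361714-55419792 and Etfb chr7:43093493-43107224. Hadha (chr5:30323302-30360187, minus strand) and Hadhb (chr5:30359204-30389997, plus strand) are transcribed away from each other, with 273 bases between their RefSeq starts. Exons of Dvl2 on the opposite strand cover 38.2% of the exon bases of Acadvl, exons of Czib cover 6.74% of those of Cpt2, exons of Ppid cover 7.05% of those of Etfdh, and exons of Garem2 cover 21.3% of those of Hadha. Etfb shares 39.6% of its exon bases with Etfbl on the same strand. How reads in these stretches were divided is not known, so the levels of these 6 genes, Hadhb included, carry that uncertainty.

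The sequence upstream of 3 of the genes is shown because Cpt2 and Hadh are the genes whose levels passed a test, and Acadvl is the one whose start region holds the core motif bound by nuclear receptors. RefSeq start regions (250 bases before to 50 after the start) were found for 9 of the 10 genes. On both strands, the core motif AGGTCA occurred in 1 of these 9 and in 16.3% of all 32851 start regions. The direct repeat with 1 base between (DR1), AGGTCANAGGTCA, which contains the core motif, occurred in 0 of 9 and in 0.0396% of all. The core motif extended to TCAAGGTCA occurred in 0 of 9 and in 0.423% of all. Below, the bases outside annotated exons are given 5′ to 3′ on the gene's own strand from the GRCm39 genome, and capitals mark the core motif, which begins at -87 from the start of Acadvl. Cpt2 is shown from chr4:107780813-107781036, Hadh from chr3:131065751-131066000 and Acadvl from chr11:69906271-69906504, all on the minus strand.
Cpt2: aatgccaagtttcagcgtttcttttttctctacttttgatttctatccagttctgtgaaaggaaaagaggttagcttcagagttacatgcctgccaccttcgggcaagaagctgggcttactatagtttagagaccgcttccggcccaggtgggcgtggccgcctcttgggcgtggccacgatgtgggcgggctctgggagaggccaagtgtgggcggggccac
Hadh: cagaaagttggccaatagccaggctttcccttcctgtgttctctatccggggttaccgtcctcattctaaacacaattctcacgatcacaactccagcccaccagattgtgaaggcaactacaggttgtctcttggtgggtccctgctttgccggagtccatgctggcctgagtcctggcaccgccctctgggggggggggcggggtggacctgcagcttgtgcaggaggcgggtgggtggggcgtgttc
Acadvl: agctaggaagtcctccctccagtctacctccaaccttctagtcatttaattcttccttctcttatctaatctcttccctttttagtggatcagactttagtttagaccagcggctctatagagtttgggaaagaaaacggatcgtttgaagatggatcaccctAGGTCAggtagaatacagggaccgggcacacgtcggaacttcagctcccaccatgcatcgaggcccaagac
The stretch upstream of Hadh is 59.6% G or C, that of Cpt2 54.9% and that of Acadvl 47.4%. No match in a window says only that these letters do not occur there.

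All 10 enzymes were expressed in sedentary quadriceps. The trifunctional protein subunits led, with Hadha at 194 TPM ± 12.9 (SD, n = 3) and Hadhb at 182 TPM ± 29.9. Etfb followed at 123 TPM ± 5.2, Acadvl at 115 ± 7.70, Acadl at 107 ± 14.4 and Etfa at 92.0 ± 7.15. Acaa2 stood at 78.6 TPM ± 8.95, Hadh at 64.5 ± 2.79, Etfdh at 44.3 ± 3.13 and Cpt2, the lowest, at 17.1 ± 0.796. In this order the ranges of the libraries overlapped between Hadha and Hadhb, Etfb and Acadvl, Acadvl and Acadl, and Acadl and Etfa, and the other neighbours did not overlap.

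**Figure D1:**
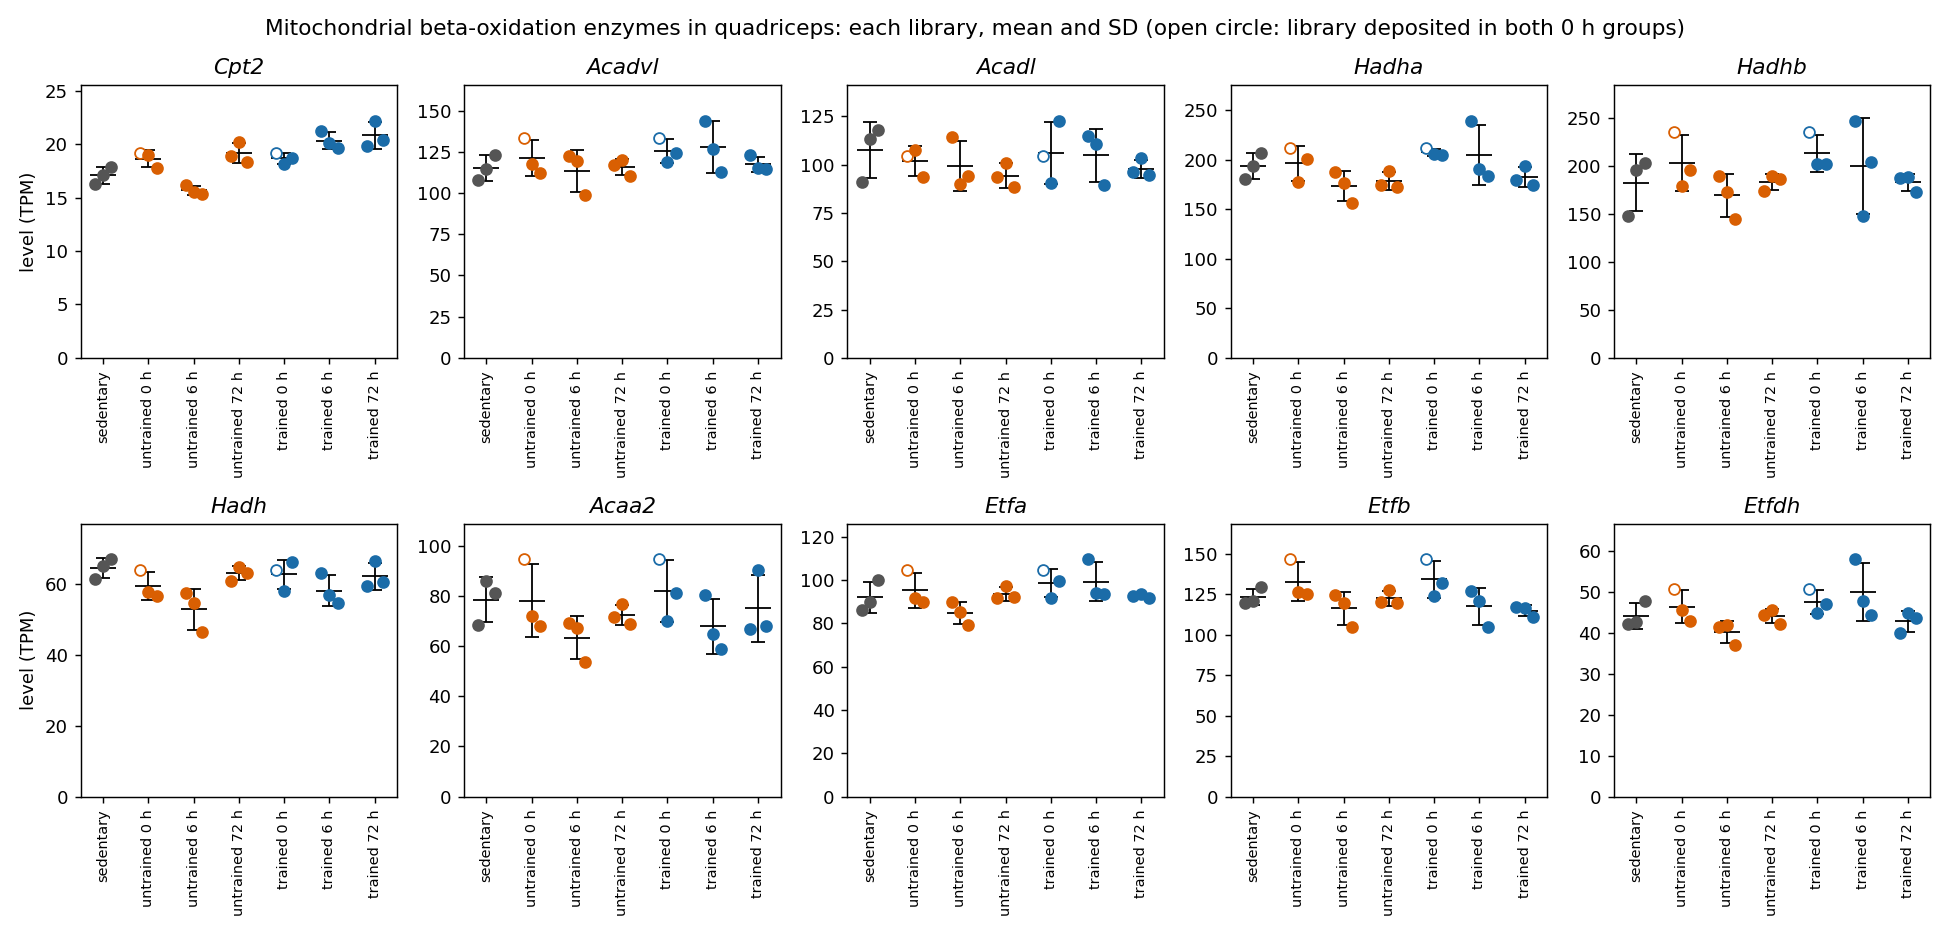
Level of each of the 10 enzymes in TPM (y axis, from 0) in every library of the 7 groups (x axis), with points for libraries and bars for the mean and SD; the open circle is the library deposited in both 0 h groups. Cpt2 is lowest in untrained 6 h (15.4 to 16.2 TPM) and highest in trained 72 h (19.9 to 22.2 TPM), while the ranges of the other genes mostly overlap.

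Across all 20 distinct libraries these levels moved little. The highest library exceeded the lowest by 1.38 times for Etfa, the narrowest range, and by 1.77 times for Acaa2, the widest. The SD within groups on the log2(TPM + 0.5) scale had a median of 0.116 over the 10 enzymes, beside 0.15 over all 11819 tested genes. It was smallest for Cpt2 (0.0605) and largest for Hadhb (0.209), so a given difference was measured most finely for Cpt2. The third untrained 6 h library was the lowest of all for 9 of the 10 genes, Acadl being the exception. The first trained 6 h library was the highest of all for Hadha, Hadhb, Acadvl, Etfa and Etfdh.

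Each exercised group was compared with sedentary mice, and trained with untrained mice at each time, with limma on log2(TPM + 0.5). A gene was called at a Benjamini-Hochberg adjusted p below 0.05 over all tested genes together with a change of at least 1.5-fold in either direction, the fold threshold of the study. With limma, 0 of the 10 enzymes were called in any of the 9 comparisons. The largest absolute log2 fold change among the 90 pairs of gene and comparison was 0.36. At an unadjusted p below 0.05 there were 10 such pairs, and at an adjusted p below 0.05 without the fold threshold there were 3. The 95% interval lay within the fold threshold on both sides in all pairs but 1, Acaa2 in untrained 6 h against sedentary mice, whose interval ran from -0.65 to 0.03. In the other pairs at 6 h and 72 h a change of the size of the threshold lay outside the interval. In the comparisons at 0 h the fit took the shared library as independent in both groups. The intervals there cannot settle whether such a change is excluded.

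The background differed between times. Of all tested genes, 3.59% were called in untrained 0 h (7.46% at adjusted p alone), 4.42% in untrained 6 h (9.47%) and 0.00846% in untrained 72 h (0.00846%) against sedentary mice. The shares were 3.74% in trained 0 h (9.37%), 3.85% in trained 6 h (10.4%) and 0.169% in trained 72 h (0.254%). Between trained and untrained mice they were 0% at 0 h (0%), 2.01% at 6 h (4.56%) and 0.245% at 72 h (0.415%). With 10 genes, 0 or 1 at adjusted p alone is near the background in each comparison, and the counts are no result about the enzymes as a group.

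Cpt2 differed most clearly. Its 3 libraries stood at 16.3, 17.1 and 17.9 TPM in sedentary mice. Untrained 6 h libraries stood at 16.2, 15.6 and 15.4 TPM, all below sedentary, and trained 6 h libraries at 21.2, 20.1 and 19.7 TPM, all above both. Of all tested genes, 13.9% were likewise higher than sedentary without overlap in trained 6 h. At 6 h, Cpt2 was higher in trained than in untrained mice by 0.36 on the log2 scale (SE 0.0568, 95% interval 0.24 to 0.48, limma adjusted p = 0.00152), a fold of 1.29, with 3 of 3 trained libraries above all untrained ones. Against sedentary mice it rose by 0.25 in trained 6 h (SE 0.0568, limma adjusted p = 0.0114), a fold of 1.19. In untrained 6 h the difference from sedentary was -0.12 (limma adjusted p = 0.248), which did not pass. In the bulk tissue, more or fewer cells of a type and more or less RNA per cell cannot be told apart.

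At 72 h, Cpt2 stood at 18.9, 20.2 and 18.4 TPM in untrained mice and at 19.9, 22.2 and 20.4 TPM in trained mice, the highest group mean (20.8 TPM ± 1.23). All 6 libraries lay above the sedentary ones, without overlap, as they did for 9.04% of all tested genes in untrained 72 h. The difference from sedentary was 0.28 in trained 72 h (SE 0.0568, 95% interval 0.16 to 0.40, limma adjusted p = 0.0514), just short of the threshold, and it passed under 5 alternatives (adjusted p from 0.02 to 0.0499). It did not pass when any of the 6 libraries was left out (0.0677 to 0.225), nor under the 5 other settings (up to 0.227). In untrained 72 h it was 0.16 (limma adjusted p = 0.801). Between trained and untrained mice at 72 h it was 0.12 (limma adjusted p = 0.355). At 0 h, the shared library stood at 19.2 TPM, the other untrained libraries at 19.0 and 17.7 TPM, and the other trained ones at 18.1 and 18.7 TPM. The ranges of these 2 groups overlapped each other. Libraries of trained 0 h all lay above the sedentary ones, as they did for 3112 of the 11819 tested genes. Those of untrained 0 h overlapped the sedentary ones. Neither difference from sedentary passed (0.12 and 0.13, limma adjusted p = 0.194 and 0.164).

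With sedentary replicate 1 or trained 6 h replicate 1 left out, the difference of Cpt2 between trained 6 h and sedentary mice was 0.21 in either case, close to the full value, and the limma adjusted p was 0.0585. It was 0.1 when only the compared groups entered the model. The difference between trained and untrained mice at 6 h kept an adjusted p of at most 0.00912 whichever library of the compared groups was left out, and did not pass (adjusted p = 0.15) when only the 2 groups entered the model. Czib, whose exons overlap those of Cpt2 on the opposite strand, averaged 20.4 TPM ± 5.72 in trained and 22.1 TPM ± 7.03 in untrained 6 h, a log2 difference of -0.10. Against a sedentary mean of 19.8 TPM ± 6.08 it averaged 30.4 TPM ± 4.38 in untrained and 24.3 TPM ± 1.68 in trained 72 h, and it passed in none of the 9 comparisons (lowest limma adjusted p = 0.0749). The part of its reads in the level of Cpt2 was not tested.

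Hadh, the dehydrogenase for chains of medium and short length, was the only enzyme lower at an adjusted p below 0.05 in this fit. It stood at 61.4, 65.0 and 66.9 TPM in sedentary mice and at 57.3, 54.7 and 46.4 TPM in untrained 6 h, with no overlap. The difference was -0.29 on the log2 scale (SE 0.0825, 95% interval -0.47 to -0.12, limma adjusted p = 0.036), a fold of 0.817. It did not pass when any of sedentary replicates 1, 2 or 3 or untrained 6 h replicates 2 or 3 was left out (adjusted p = 0.0516, 0.093, 0.108, 0.0562 and 0.17), nor with no expression filter (0.064) or with only the compared groups in the model (0.238). The differences ran from -0.32 to -0.20 in these fits. In trained 6 h, Hadh libraries stood at 63.0, 56.8 and 54.5 TPM, overlapping those of sedentary mice, and the difference from sedentary was -0.15 (limma adjusted p = 0.284). By 72 h, untrained libraries lay between 60.9 and 64.8 TPM and trained ones between 59.3 and 66.5 TPM, across the range of sedentary mice.

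At 6 h in untrained mice all 10 enzymes lay below sedentary. The log2 differences ran from -0.31 (Acaa2) to -0.03 (Acadvl), with a median of -0.12 beside 0.01 over all tested genes. Of these, Hadh alone passed the test. The libraries of Cpt2, Hadh and Etfdh did not overlap with sedentary ones, and 8.72% of all tested genes were likewise lower without overlap. For 8 of the 10 genes untrained 6 h was the lowest of the 7 group means, and the exceptions were Etfb, lowest in trained 72 h, and Acadl, lowest in untrained 72 h. When single libraries were left out, the median ran from -0.19 (without sedentary replicate 1) to -0.07 (without sedentary replicate 3), and it was -0.08 without the third untrained 6 h library.

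**Figure D2:**
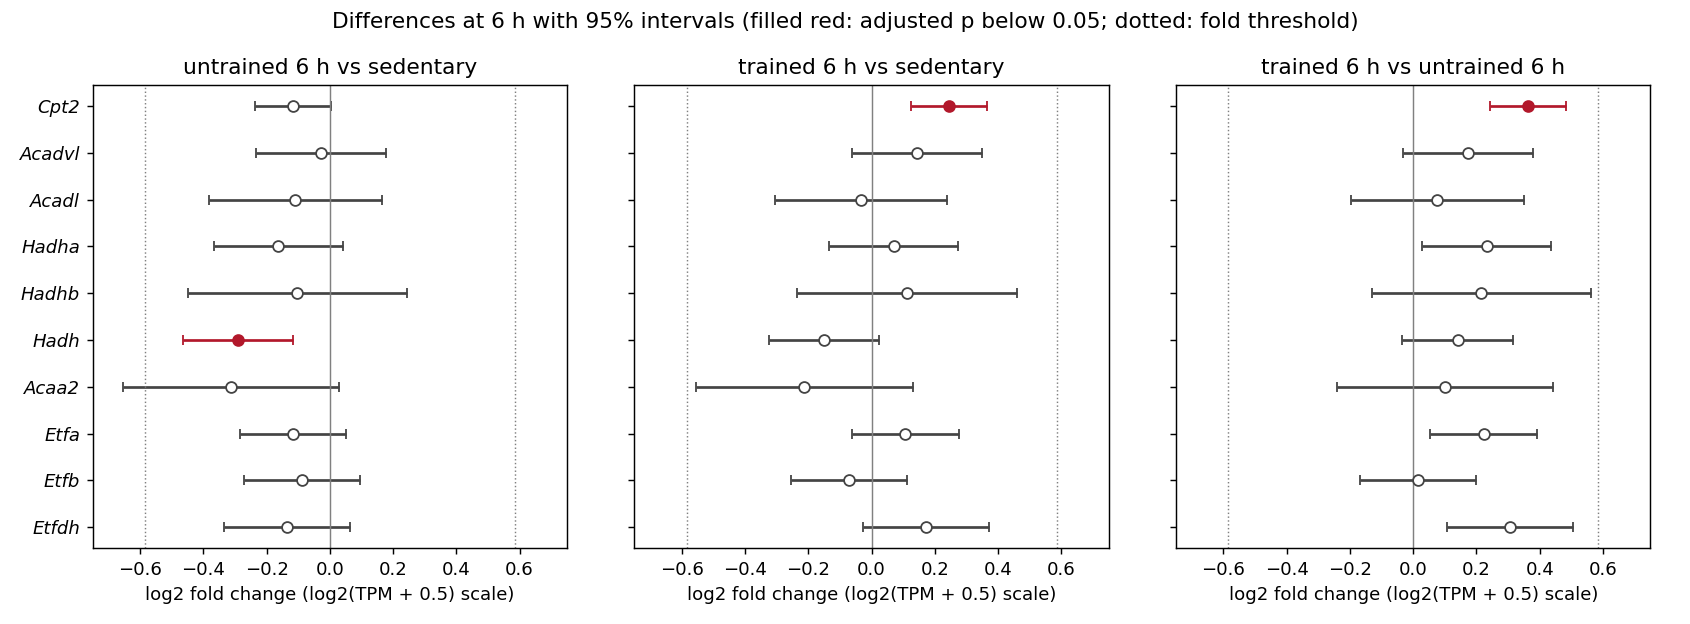
Log2 fold change of each enzyme (y axis) on the log2(TPM + 0.5) scale (x axis) with 95% intervals in 3 comparisons at 6 h; filled red points have an adjusted p below 0.05 and dotted lines mark the fold threshold. Hadh in untrained against sedentary mice and Cpt2 in both trained comparisons are red, and all 10 points lie right of 0 in trained against untrained mice.

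The acyl-CoA dehydrogenases Acadvl and Acadl and the trifunctional protein did not pass the test at 6 h. Acadvl stood at 108, 115 and 123 TPM in sedentary mice, at 122, 119 and 98.6 TPM in untrained 6 h and at 144, 127 and 113 TPM in trained 6 h, and the 3 groups overlapped. Acadl ranged from 89.3 to 118 TPM over the same 9 libraries and also overlapped. Hadha was at 187, 176 and 157 TPM in untrained and at 239.8, 191 and 184 TPM in trained 6 h, a log2 difference of 0.23 (SE 0.0958, limma adjusted p = 0.202), which was 0.36 and passed under quantile normalization (adjusted p = 0.0222). Hadhb was at 189.5, 173 and 145 TPM in untrained and at 247, 148 and 204 TPM in trained 6 h, so its trained libraries spanned nearly the whole range seen in the study. Acaa2, the thiolase, differed from sedentary by -0.31 in untrained and by -0.21 in trained 6 h, with limma adjusted p = 0.281 and 0.461.

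Among the electron carriers, Etfdh came nearest to the test. It stood at 42.2, 42.8 and 47.9 TPM in sedentary mice, at 41.5, 42.1 and 37.2 TPM in untrained 6 h and at 58.1, 47.8 and 44.55 TPM in trained 6 h. Trained 6 h libraries all lay above untrained ones, with a log2 difference of 0.31 (SE 0.0939, 95% interval 0.11 to 0.51, limma adjusted p = 0.0784). Etfa was at 89.7, 85.1 and 79.3 TPM in untrained and at 109.5, 94.1 and 93.7 TPM in trained 6 h, again without overlap, with a difference of 0.22 (SE 0.0795, limma adjusted p = 0.135). Its partner Etfb was at 124, 120 and 105 TPM in untrained and at 127, 121 and 105 TPM in trained 6 h, a difference of 0.02. Etfdh and Etfa passed at 6 h under other scalings of the TPM, with adjusted p down to 0.00708 and 0.0119.

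All 10 enzymes had higher means in trained than in untrained mice at 6 h, with a median log2 difference of 0.19 beside -0.04 over all tested genes. Related lists, described below, also had medians above 0 in this comparison. These were 0.11 for 20 other beta-oxidation genes and 0.26 for 12 genes that supply fatty acids. They were 0.24 for 10 regulators and 0.09 for 18 genes of the tricarboxylic acid cycle, so the direction was not particular to the enzymes. Cpt2, Etfa and Etfdh were higher without overlap, as were 7.4% of all tested genes. The median of the 10 enzymes rested in part on 2 libraries: it was 0.08 when trained 6 h replicate 1 was left out, and 0.09 when untrained 6 h replicate 3 was. For the enzymes, trained 6 h against sedentary mice gave a median of 0.09, with 6 of 10 above 0, and -0.05 without trained 6 h replicate 1.

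Cell and fibre markers differed between the same groups. The 8 skeletal muscle markers summed to 59379 to 68761 TPM in sedentary, 66213 to 70071 TPM in untrained 6 h and 57613 to 65697 TPM in trained 6 h libraries, and the sums of the 6 h groups did not overlap each other. Between trained and untrained mice their median was -0.15, and 1 of 8 was called, as higher. The 6 slow fibre markers, such as Myh7 and Tnnt1, summed to 344 to 678 TPM in sedentary, 169 to 263 TPM in untrained 6 h and 242 to 638 TPM in trained 6 h libraries. Of these, 1 of 6 fell in untrained 6 h, where their median was -1.15, and 0 of 6 passed in trained against untrained mice, where it was 1.19. At an unadjusted limma p below 0.05, 5 of 6 fell in the first comparison and 5 of 6 were higher in the second. The endothelial markers summed to 49.6 to 58.7, 41.1 to 51.8 and 49.97 to 62.8 TPM, and 2 of 6 fell in untrained 6 h. Macrophage markers summed to 28.5 to 30.9, 25.1 to 50.7 and 24.6 to 35.6 TPM, and 2 of the 5 tested, of 7, rose in untrained 6 h, and 2 were lower in trained than in untrained mice. Fibroblast markers summed to 230 to 271, 137 to 377 and 225 to 258 TPM, and 2 of 5 fell in trained 6 h against sedentary mice. White adipocyte markers summed to 25.4 to 42.3, 24.5 to 108 and 35.6 to 92.6 TPM, brown adipocyte markers to at most 7.99 TPM, red blood cell markers to between 296 and 450 TPM, and satellite cell markers to at most 0.964 TPM in these groups. None of the markers in these lists was at 0 in every library. The slow fibre markers were not low at 6 h alone. Their median against sedentary mice was -1.16 in untrained 0 h, where 1 of 6 fell, and -0.57 in untrained 72 h. It was -0.54 in trained 0 h and -0.77 in trained 72 h. The part of these cell and fibre types in the levels of the enzymes was not tested.

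At 0 h and 72 h none of the enzymes passed in any comparison with limma. The median log2 difference from sedentary was 0.06 in untrained and 0.10 in trained 0 h, beside 0.10 and 0.13 over all tested genes, so the enzymes lay slightly below the shift of all genes. The sign at 0 h depended on scaling. When TPM were rescaled by the median of ratios, the medians of all genes moved to -0.0042 and -0.00264, and those of the enzymes to -0.06 and -0.05. Without the shared library the median of the enzymes in untrained 0 h was -0.01. At 72 h the median was -0.01 in untrained and -0.05 in trained mice, beside 0.04 and -0.04 over all genes.

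Cpt2 was the exception at 72 h in trained mice, as the one enzyme higher than sedentary without overlap, in company with 5.63% of all tested genes. Etfb stood at 117.1, 116.5 and 111 TPM in trained 72 h, all below the sedentary libraries of 119.8, 120.7 and 129.2 TPM (13.8% of all tested genes were lower without overlap), with a difference of -0.10 (SE 0.0865, limma adjusted p = 0.706) that did not pass. Between trained and untrained mice the 10 enzymes differed by medians of 0.05 at 0 h and 0.01 at 72 h. The medians over all tested genes were 0.03 and -0.08. At 72 h the median of the enzymes became 0.102 with median of ratios and 0.127 with quantile normalization. With TPM rescaled without the mitochondrial genome and the top 10 genes it became 0.125. Over all tested genes these medians were 0, -0.0021 and 0.0215. Of the 10 enzymes, 10, 9 and 10 were higher in trained mice in these fits, and 0 passed at adjusted p. With the shared library on both sides, the comparison at 0 h had 2 distinct libraries a group besides it.

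**Figure D3:**
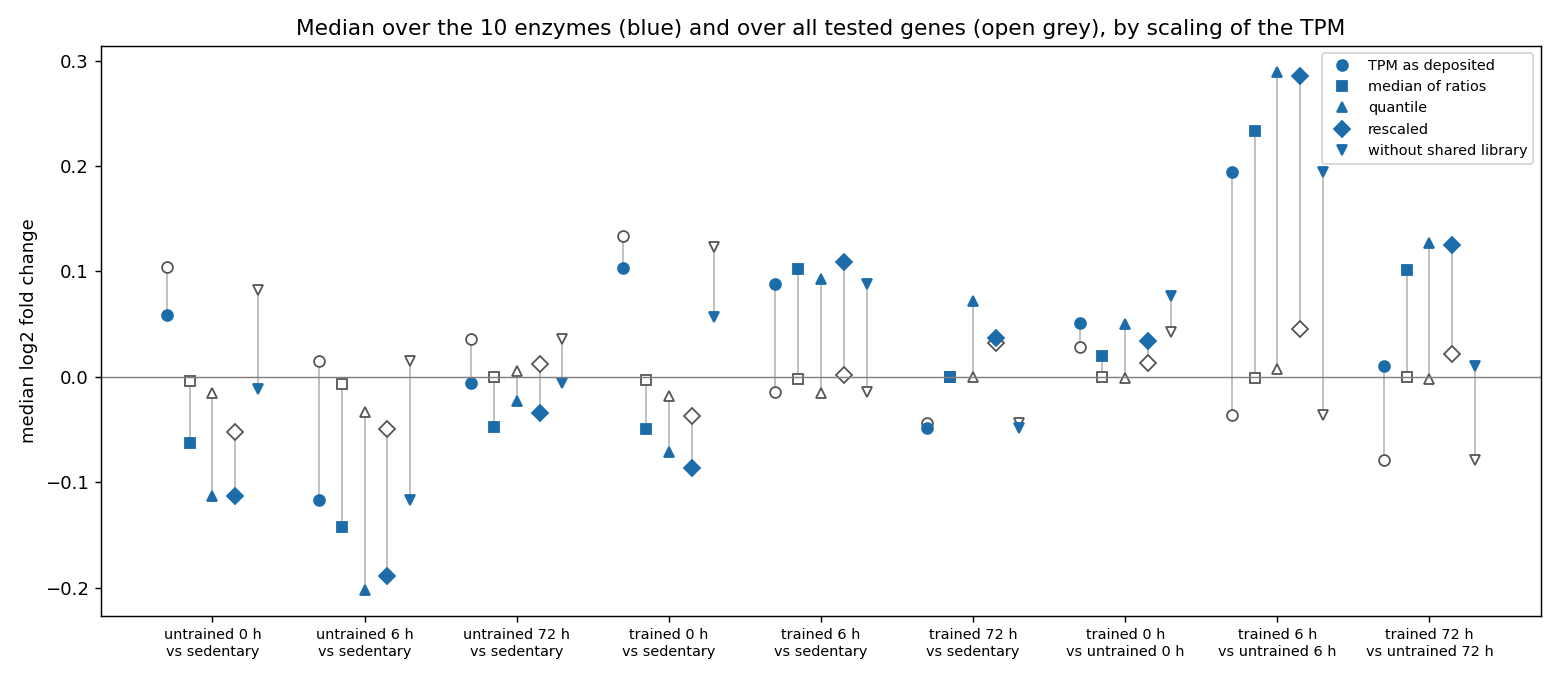
Median log2 fold change (y axis) over the 10 enzymes (blue) and over all tested genes (open grey) in the 9 comparisons (x axis), each under 5 treatments of the TPM marked by symbol shape. Under all 5, the enzymes lie above all genes in trained against untrained mice at 6 h (medians of 0.19 to 0.29), whereas their sign at 0 h against sedentary mice changes with the scaling.

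The proportions of partner subunits varied over narrow ranges. The TPM ratio of Hadha to Hadhb had a median of 1.01 over 20 libraries and ran from 0.901 to 1.29. The group means lay between 0.973 (untrained 0 h) and 1.08 (sedentary), within the spread of single libraries. Hadha shares exon bases with Hadhb and with Garem2, and the part of these stretches in the ratio was not tested. The ratio of Etfa to Etfb had a median of 0.760 and ran from 0.711 to 0.892. It averaged 0.746 ± 0.0271 (SD, n = 3) in sedentary mice, 0.730 ± 0.0249 in untrained 6 h, 0.845 ± 0.0580 in trained 6 h and 0.808 ± 0.0186 in trained 72 h. All 6 libraries of trained 6 h and 72 h lay above the highest sedentary library, at 0.774, and this ratio was described without a test. Trained 0 h did not share this: with the shared library, its ratio averaged 0.735 ± 0.0200 and reached at most 0.753. Untrained 72 h averaged 0.765 ± 0.00569. Etfb shares 39.6% of its exon bases with Etfbl, and the part of Etfbl in this ratio was not tested. Other ratios separated as well. The ratio of Hadha to Acadvl was at most 1.666 in untrained 6 h, untrained 72 h and trained 6 h. Sedentary libraries lay at 1.678 or above. The ratio of Cpt2 to Cpt1b, another beta-oxidation gene, lay above all sedentary libraries in untrained 72 h and in all trained groups. How many gene pairs separate in this way was not tested.

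**Figure D4:**
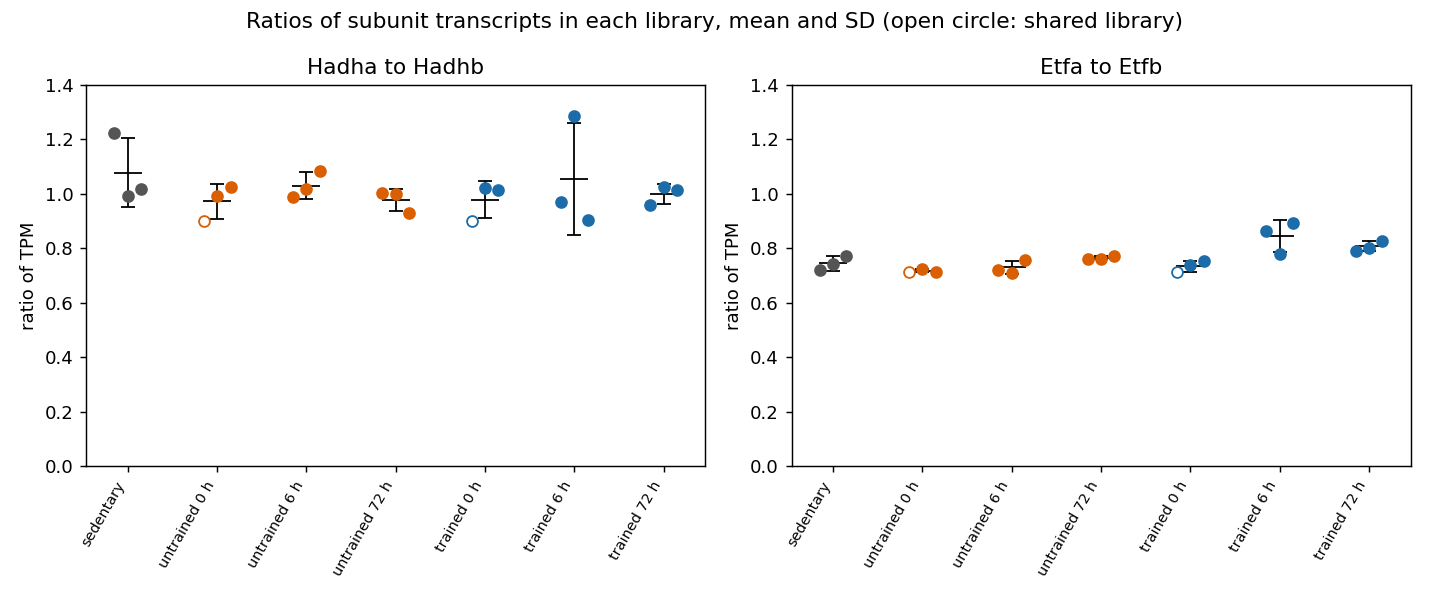
Ratio of TPM (y axis, from 0) of Hadha to Hadhb on the left and of Etfa to Etfb on the right in each library of the 7 groups (x axis), with mean and SD; the open circle is the shared library. The ratio of Etfa to Etfb is between 0.780 and 0.892 in trained 6 h and between 0.792 and 0.828 in trained 72 h, above the sedentary range of 0.720 to 0.774. In trained 0 h it is between 0.714 and 0.753.

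Over the 20 distinct libraries the 10 enzymes varied together. Pearson r was above 0 for all 45 pairs, with a median of 0.588 and a range from 0.113 (Cpt2 with Etfb) to 0.905 (Etfa with Etfdh). The libraries share group effects and the TPM scaling, and the values are a description. No r between other pairs of tested genes was computed as a reference. The third untrained 6 h library was the lowest for most of the enzymes, and the first trained 6 h library the highest for several. The part of these libraries in r was not tested. Etfa followed the mean of the other 9 most closely (r = 0.930) and Cpt2 least (r = 0.499). Against the share of the mitochondrial genome, r lay between -0.592 (Etfb) and 0.367 (Cpt2). The 5 other tested genes most like the mean of the 10 were Ephx2, an epoxide hydrolase (r = 0.887), Sdhb, a subunit of succinate dehydrogenase (r = 0.869), Dvl2 (r = 0.863), Hsdl2 (r = 0.861) and Atp5h, a subunit of ATP synthase (r = 0.832), each over 20 libraries. Dvl2 overlaps Acadvl on the opposite strand.

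Few of the other genes of the pathway passed the test. Of 20 other beta-oxidation genes, 0 were called with limma in any comparison. In untrained 6 h, 1 rose and 2 fell at an adjusted p below 0.05 (2 and 5 at an unadjusted p below 0.05). In trained 6 h, 1 rose and 0 fell (2 and 1 unadjusted). Acadm, the medium-chain dehydrogenase, was at 194, 200 and 231 TPM in sedentary and at 159, 168 and 167 TPM in untrained 6 h, a difference of -0.33 (SE 0.0984, limma adjusted p = 0.0434). Decr1, a reductase needed for unsaturated chains, fell by 0.33 as well (SE 0.0832, limma adjusted p = 0.0183). In trained 6 h, Decr1 differed from sedentary by -0.20 (limma adjusted p = 0.153), which did not pass. Acacb, the acetyl-CoA carboxylase that makes the malonyl-CoA known to restrain carnitine-dependent entry, rose by 0.27 in untrained and by 0.47 in trained 6 h (limma adjusted p = 0.0451 and 0.00142). Acads, the short-chain dehydrogenase, was higher in trained than in untrained mice at 6 h by 0.23 (limma adjusted p = 0.0392). Acadm did not pass whichever of the 6 libraries was left out, and with the replicate number as a block neither Acadm (adjusted p = 0.0574) nor Acads (0.056) passed. Decr1, Acacb in untrained mice and Acads did not pass without untrained 6 h replicate 3 (adjusted p = 0.0961, 0.177 and 0.123). The same held for Decr1 without sedentary replicate 3, for Acacb without sedentary replicates 1 or 2 or untrained 6 h replicate 2, and for Acads without untrained 6 h replicate 2 or trained 6 h replicates 1 or 2 (adjusted p from 0.0665 to 0.167). Neither Acadm nor Acacb in untrained mice passed with no expression filter (adjusted p = 0.0872 and 0.0793) or without the shared library (0.055 and 0.0548). Under quantile normalization Acacb in untrained mice rose by 0.18 and did not pass (adjusted p = 0.165). With TPM rescaled without the mitochondrial genome and the top 10 genes it rose by 0.20 and did not pass (0.153).

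Of 12 genes that supply fatty acids, 4 rose in trained 6 h against sedentary mice, 1 of them past the fold threshold, and 8 did not pass. Plin5, a protein of the lipid droplet surface that faces mitochondria, was at 5.66, 5.74 and 7.03 TPM in sedentary and at 18.9, 13.9 and 9.43 TPM in trained 6 h, a difference of 1.09 (SE 0.267, limma adjusted p = 0.0161). Slc27a4, a fatty acid transport protein, rose by 0.56 and Pnpla2, the adipose triglyceride lipase, by 0.54 (limma adjusted p = 0.0173 and 0.00159). Plin5 did not pass without sedentary replicates 1 or 2 or trained 6 h replicate 1, nor Slc27a4 without sedentary replicates 1 or 2 or trained 6 h replicate 3 (adjusted p from 0.0543 to 0.0849). Cd36, the fatty acid translocase, was at 129, 102 and 98.1 TPM in trained and at 74.4, 71.4 and 79.6 TPM in untrained 6 h, a difference of 0.53 (SE 0.0954, limma adjusted p = 0.00359). In untrained 6 h, 0 of 12 passed with limma, and 2 had an unadjusted p below 0.05.

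Among 10 regulators of these genes, 3 rose in untrained and 5 in trained 6 h against sedentary mice. Ppargc1a, which encodes PGC-1alpha, was at 3.04, 4.30 and 4.34 TPM in sedentary, at 22.3, 33.1 and 25.9 TPM in untrained 6 h and at 48.6, 29.1 and 39.2 TPM in trained 6 h. Its log2 differences from sedentary were 2.65 (SE 0.196, limma adjusted p = 2.78e-07) and 3.15 (limma adjusted p = 3.97e-07). Lpin1, a phosphatidate phosphatase that also acts as a coactivator, rose by 0.67 in untrained and 0.91 in trained 6 h, and Ppard rose by 0.38 in untrained 6 h (limma adjusted p = 0.0411). With the replicate number as a block Ppard did not pass (adjusted p = 0.0556), nor without sedentary replicates 1 or 2 or untrained 6 h replicates 2 or 3 (0.0769 to 0.188). Ppard also did not pass with no expression filter (adjusted p = 0.0881) or without the shared library (0.0557). The same held with TPM rescaled without the mitochondrial genome and the top 10 genes (0.0683). Esrrg, an oestrogen-related receptor, was at 5.01, 4.07 and 3.60 TPM in untrained and at 11.9, 10.9 and 9.15 TPM in trained 6 h, a difference of 1.24 (SE 0.142, limma adjusted p = 9.18e-05). Ppara was at 1.51, 0.938 and 1.99 TPM in untrained and at 5.09, 3.74 and 5.65 TPM in trained 6 h, a difference of 1.45 (SE 0.231, limma adjusted p = 0.00164). Immediately after the bout, Esrrg fell by 0.59 in untrained mice (limma adjusted p = 0.0178), which did not pass without sedentary replicate 2 or untrained 0 h replicates 1 or 3 (adjusted p = 0.0971, 0.0818 and 0.051). Lpin1 rose by 0.30 in trained 0 h (limma adjusted p = 0.0291), but not under any of 3 other scalings (0.10 to 0.15, adjusted p from 0.156 to 0.43) nor without sedentary replicates 1 or 2 or trained 0 h replicates 1 or 2 (0.0821 to 0.122). At 72 h, 0 of the 10 regulators passed against sedentary mice with limma, while 4 had an unadjusted p below 0.05 in trained mice.

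**Figure D5:**
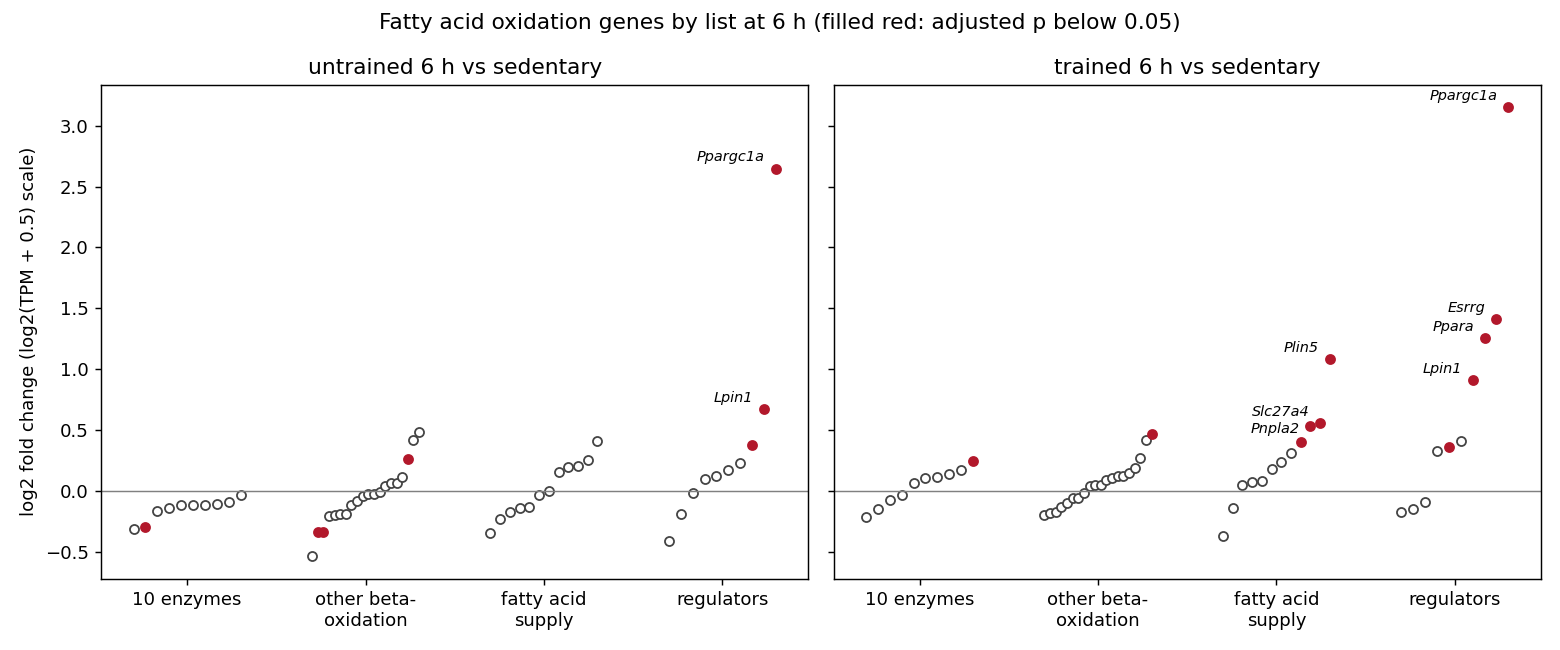
Log2 fold change (y axis) of the 10 enzymes and of the other beta-oxidation, fatty acid supply and regulator genes (x axis, 1 point a gene, sorted within a list) at 6 h in untrained mice (left) and trained mice (right) against sedentary; filled red points have an adjusted p below 0.05. Ppargc1a stands at 2.65 and 3.15, while the 10 enzymes lie between -0.31 and 0.25.

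Against sedentary mice at 6 h, the median log2 differences of the regulators were 0.15 in untrained and 0.39 in trained mice, beside -0.12 and 0.09 for the enzymes and 0.01 and -0.01 for all tested genes. Of 18 genes of the tricarboxylic acid cycle, 1 fell past the fold threshold in untrained 6 h and 1 rose in trained 6 h at adjusted p alone, with medians of -0.08 and 0.01. With only the compared groups in the model, the differences between trained and untrained mice at 6 h did not pass for Ppara, Esrrg, Cd36 and Acads (adjusted p = 0.152, 0.0742, 0.206 and 0.36), nor did those between trained 6 h and sedentary mice for Pnpla2, Plin5 and Acacb (0.0852, 0.0906 and 0.0628). In untrained 6 h against sedentary mice, Acadm, Decr1, Acacb and Ppard did not pass in that model (0.139, 0.165, 0.247 and 0.286), nor did Esrrg in untrained 0 h (0.0636) or Lpin1 in trained 0 h (0.14). The comparisons with sedentary mice share the same 3 sedentary libraries.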

How the data were processed

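Quadriceps RNA libraries were prepared with a TruSeq kit that does not mark strand. The authors aligned reads to GRCm39 (STAR 2.7.9) and deposited TPM values per gene made with salmon 1.5.0 in 1 table of 53738 symbols and 21 libraries, of which 20 were distinct. All columns were assigned to a sample (0 left unassigned). Groups came from the sample titles. The 11819 genes whose mean reached 1 TPM, all 10 enzymes included, were fitted on log2(TPM + 0.5) with limma 3.58.1 (trend) in R 4.3.3, with 7 group means in 1 model and 14 residual degrees of freedom, in 9 comparisons, with Benjamini-Hochberg adjustment within each. A fold change on this scale understates changes of low genes. Depth is unknown from TPM. The fit was tested on simulated data.

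The enzymes and gene lists were chosen with earlier results of these data known. Named are all 10 enzymes, for each comparison up to 3 genes per direction with the largest change at adjusted p below 0.05 from the lists of other beta-oxidation, fatty acid supply and regulator genes, and the 5 genes most correlated with the enzymes. Czib and the other overlapping genes were named for their position. Same-numbered libraries deviated together by r of at most 0.102 except at 0 h between trained and untrained mice, where they include the identical library, and the replicate number was not used in the main model. Alternatives were the pseudocount, the filter, 3 scalings, the groups in the model, the replicate block, the fold threshold, each library left out, and the shared library left out. Motifs were searched in RefSeq start regions (GRCm38.p6), and sequences were read from GRCm39.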

Additional observations from a re-analysis of the deposited data

Results flagged for a closer look

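Between trained and untrained mice at 6 h, 5 of the genes named above differed by the test of the difference itself, which equals the gap between their differences from the same sedentary libraries. For Cpt2 the difference was 0.3619 on the log2 scale (SE 0.0568, limma adjusted p = 0.00152), from 0.25 in trained and -0.12 in untrained mice. All 3 trained libraries were higher, as they were for 7.4% of all tested genes. For Acads it was 0.2258 (SE 0.0588, limma adjusted p = 0.0392), from 0.04 and -0.18. For Cd36 it was 0.533 (SE 0.0954, limma adjusted p = 0.00359), from 0.40 and -0.13. For Ppara it was 1.4469 (SE 0.231, limma adjusted p = 0.00164), from 1.26 and -0.19. For Esrrg it was 1.2392 (SE 0.142, limma adjusted p = 9.18e-05), from 1.41 and 0.17. Acads, Cd36, Ppara and Esrrg were named because they passed this same test, so their passing it adds no support. With only the compared groups in the model, none of the 5 passed. The limma adjusted p was then 0.15 for Cpt2, 0.36 for Acads, 0.206 for Cd36, 0.152 for Ppara and 0.0742 for Esrrg. With the replicate number as a block, Acads did not pass either (limma adjusted p = 0.056). No group held enough libraries for a test of outlying samples.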

How the results depend on the processing

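No enzyme was called with the fold threshold under any alternative, and of 90 pairs of enzyme and comparison 81 never reached an adjusted p below 0.05 under any of them, with 0 passing pairs reversed in direction. Without the fold threshold 1 enzyme each passed in untrained 6 h, trained 6 h and trained against untrained 6 h. These counts at adjusted p alone became 0 in untrained 6 h with no expression filter, and 0, 0 and 0 with only the compared groups in the model. In trained 72 h the count became 1 with a minimum mean of 5 TPM, with each of the 3 scalings and without the shared library. In trained against untrained 6 h it became 2 with median of ratios, 4 with quantile normalization and 3 with TPM rescaled without the mitochondrial genome and the top 10 genes. Quantile normalization also gave 1 in untrained 0 h and 2 in untrained 6 h. The median over the enzymes at 0 h became -0.0624, -0.113 and -0.113 in untrained and -0.0493, -0.0715 and -0.0862 in trained mice under these 3 scalings, and 0.0723 in trained 72 h under quantile normalization. Between trained and untrained mice at 72 h the median became 0.102, 0.127 and 0.125 under the same 3 scalings. Leaving out single libraries gave counts of 0 to 1 in untrained 6 h, 0 to 1 in trained 6 h and 1 to 2 in trained against untrained 6 h, and medians of -0.0525 to 0.142 in trained 6 h. With replicate number as a block the counts were 0, 1 and 0 in untrained, 0, 1 and 0 in trained and 0, 1 and 0 between them at 0, 6 and 72 h, and beside Acadm, Acads and Ppard the block changed no other call. The causes of these shifts were not tested. TPM carry no depth, so counting error of the lower genes such as Ppara could not be given.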
